A study of Mus musculus with 6 samples.

Results

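Complement and coagulation factors are the plasma proteins of innate immune defence and of blood clotting. A set of 43 of their genes was followed by RNA-seq in mouse liver. The genes were listed by symbol, and each symbol matched 1 Ensembl identifier among the 49671 genes of the count table. All 43 also passed the filter on low counts and were tested together with the other genes, 16089 in all. From general knowledge of where each transcript is made, 36 were grouped as hepatocyte-made, 6 as myeloid-made (C1qa, C1qb, C1qc, Cfp, C3ar1 and C5ar1), and Cfd, which encodes adipsin, was kept apart.

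The livers came from 3 control mice and 3 SHMT2 HKO mice, which the labels call WT and KO and number from 1 to 3. The labels' WT was read as the SHMT2 fl/fl control of the study, which carries the floxed gene without Cre. In SHMT2 HKO mice an Albumin-Cre transgene deletes SHMT2, the mitochondrial serine hydroxymethyltransferase, in hepatocytes, so the deletion is aimed at hepatocytes and not at the other cells of the liver, and Shmt2 was not measured by cell type here. Both strains are of C57BL/6J background. All 6 mice were males that began the AMLN diet, a fatty liver diet high in fat, cholesterol and fructose, at 4 weeks of age and stayed on it for 18 weeks, and livers were taken at 22 weeks.

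Hepatocytes secrete most complement proteins and clotting factors into the blood, many of them as inactive proteases that activate one another in order. Complement is started by C1q (classical pathway), by mannose-binding lectins (lectin pathway) or spontaneously (alternative pathway), and all routes meet at C3. Clotting ends with thrombin cutting fibrinogen to fibrin, which plasmin later removes. The C1q chains and the receptors for C3a and C5a differ from the rest in that macrophages and other myeloid cells make them, and adipsin is known mainly as a product of adipocytes.

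Counts on genes ranged from 23090837 to 34089722 per mouse, and these 43 genes held between 2.73% and 4.62% of them. Shmt2, the targeted gene, fell from 99.2 ± 8.51 to 24.2 ± 4.51 CPM (SD, n = 3 per genotype), with a log2 fold change of −2.04 (SE 0.161, adjusted p = 0.000639). CPM are counts scaled to a common library size after TMM scaling, which assumes that most genes do not change. Fold changes are KO over WT on the log2 scale, and the adjusted p-value is that of edgeR's quasi-likelihood F test, two-sided, with Benjamini-Hochberg adjustment over all 16089 genes. Genes under an adjusted p of 0.05 are called here. The labels number the livers but do not describe the animals further, so the p-values measure the spread between these 6 samples. On the first principal component, which held 64.8% of the variance, KO 3 was the KO mouse nearest to WT. It was at 35.0, with KO 1 at 66.5, KO 2 at 68.8 and the WT mice at −65.5 to −51.0. KO 1 stood apart from the other KO mice on the second, which held 19.4%. Values without KO 1 or without KO 3 are given where they matter. In bulk liver, fewer cells of a type and less RNA per cell cannot be told apart.

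Of the 43 genes, 20 rose, 4 fell and 19 were not called. Over all genes tested 29% were called, 12.5% higher and 16.5% lower in KO. The 2 larger source groups moved apart. Among the 36 hepatocyte-made genes 19 rose and 0 fell (0 fell with DESeq2 or limma-voom), and 33 had a positive log2 fold change. Their median log2 fold change was 0.71, with a range from −0.12 to 1.23, where the median of all genes tested was 0.03. Among the 6 myeloid-made genes 0 rose and 4 fell, and the median was −0.89. Cfd rose by 4.81 on the log2 scale, which was the largest change of the set.

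**Figure D1:**
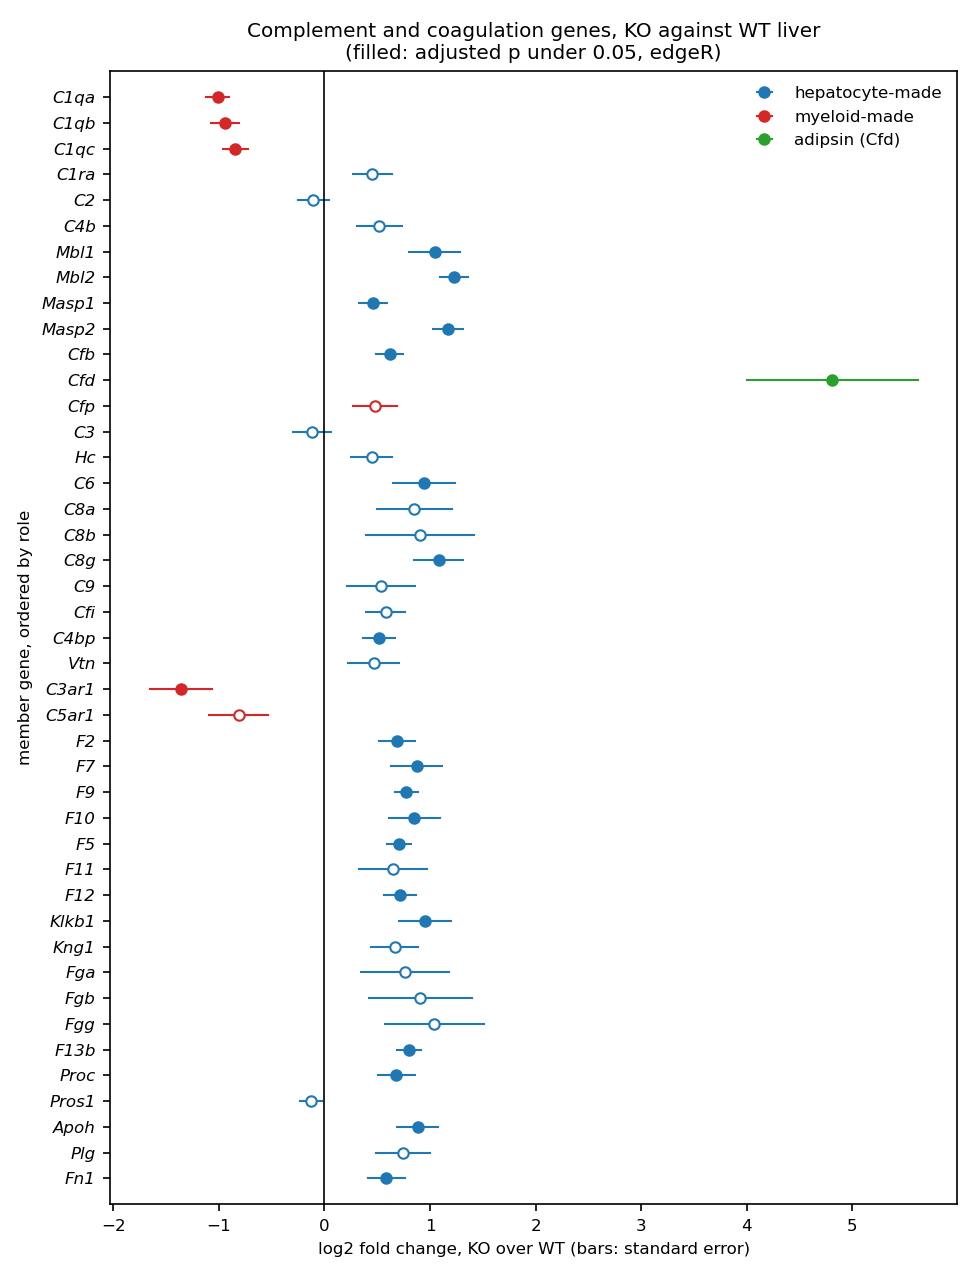
The log2 fold change of KO over WT (horizontal axis) is drawn for each of the 43 genes, ordered by role, with bars for the standard error of the edgeR fit and filled points for an adjusted p under 0.05. With TMM scaling 33 of the 36 hepatocyte-made genes (blue) lie to the right of 0 and 5 of the 6 myeloid-made genes (red) to the left, while under ERCC scaling 26 of the 36 hepatocyte-made genes are below 0.

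ERCC scaling turned the sign of most hepatocyte-made genes, while without TMM scaling 33 of the 36 stayed above 0. A change of scaling moves all genes nearly alike, so their place among all genes is kept by construction and is no separate test. Without TMM scaling the median of all genes moved by −0.42, and with scaling to the ERCC spike-in RNAs it moved by −0.72. The hepatocyte-made median then stood at 0.28 and at −0.13, and with ERCC scaling 26 of the 36 genes were below 0. Calls of higher expression among them went from 19 to 5 without TMM and to 0 with ERCC scaling, and without TMM C2, C3 and Pros1 were called lower (adjusted p = 0.0369, 0.0243 and 0.0209). DESeq2 called C4b, C8a, Cfi, Kng1 and Plg higher (adjusted p 0.00686 to 0.0367), and with no filter beyond 1 count so were Cfi, Kng1 and Plg (0.0374 to 0.0488), while the reported edgeR fit called none of these 5 genes. Relative to the median of all genes, the hepatocyte-made median was 0.68 higher with TMM, 0.68 higher without it and 0.56 higher with ERCC scaling, and 33 of the 36 genes were above that median each time. The myeloid-made median relative to all genes was −0.92, −0.91 and −0.89. Spike-in RNAs held 2.75% of counts in KO 1 and 2.31% in KO 2, but 1.35% in KO 3 and 1.42% to 1.84% in WT. Directions below are those with TMM scaling, and ERCC scaling turned the sign of every hepatocyte-made gene that rose with the exception of Mbl1, Mbl2, Masp2, C6, C8g, F9, Klkb1, F13b and Apoh.

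**Figure D2:**
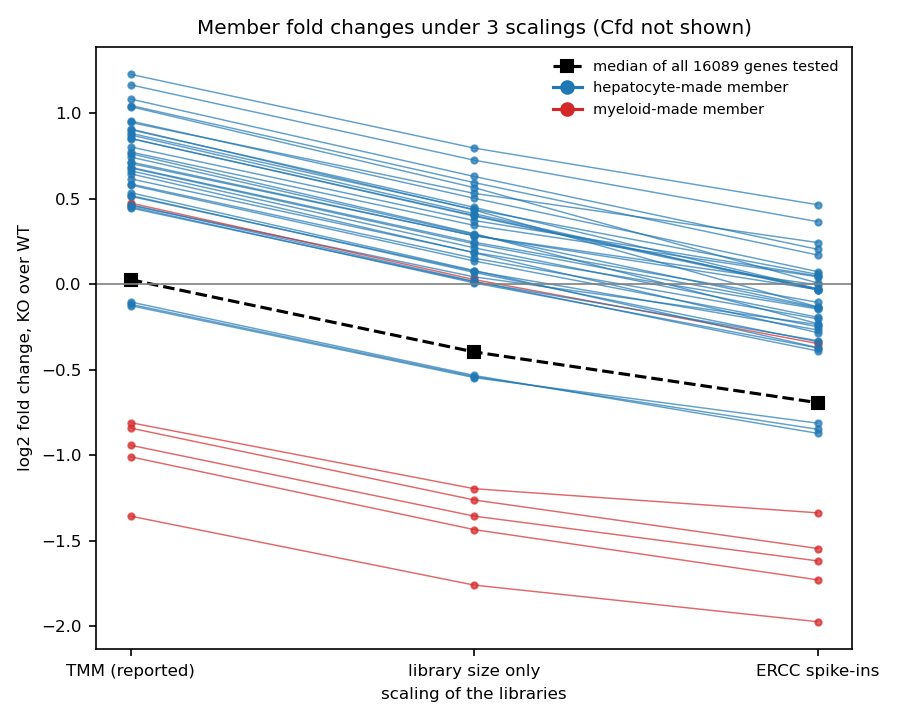
Each line joins the log2 fold change of 1 gene (vertical axis) under TMM scaling, library size only and ERCC scaling, with hepatocyte-made genes in blue, myeloid-made genes in red and the median of all 16089 genes as black squares (Cfd is not drawn). The blue lines fall together with the black squares from a median of 0.71 to −0.13. The same 3 genes (C2, C3 and Pros1) lie below the squares under all 3 scalings, since scaling moves all genes nearly alike.

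C1q is the recognition molecule of the classical pathway, a bundle of A, B and C chains that binds antibody complexes, and its 3 genes fell together. C1qa was at 168, 160 and 169 CPM in WT 1 to WT 3 and at 76.5, 90.1 and 80.7 CPM in KO 1 to KO 3. C1qb was at 143, 129 and 155 CPM in WT and at 62.4, 79.3 and 80.8 CPM in KO, and C1qc at 133, 116 and 140 against 65.7, 76.8 and 74.7 CPM. Every KO liver was below every WT liver for all 3 chains. The log2 fold changes were −1.01 for C1qa (SE 0.118, adjusted p = 0.00137), −0.94 for C1qb (SE 0.143, adjusted p = 0.00312) and −0.84 for C1qc (SE 0.127, adjusted p = 0.00305). Of the 24 called genes these were the 3 that stayed called in all 15 alternatives, ERCC scaling included. They are neighbours on chromosome 4 of GRCm38, in the order C1qb, C1qc, C1qa between 136880129 and 136898803, with gaps of 3616 and 2851 bases. Per kilobase of exon, C1qb stood at 0.82 ± 0.052 of C1qa in WT and 0.859 ± 0.0904 in KO, with overlap between genotypes, and C1qc at 0.42 ± 0.0271 and 0.473 ± 0.0224, without overlap.

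C1q moved with general macrophage genes and against Kupffer cell genes. Of 12 macrophage markers 11 fell, and their summed level was 924 to 1155 CPM in WT and 413 to 571 CPM in KO. The sum of the 3 C1q chains over the sum of these 12 markers was 0.41 ± 0.027 in WT and 0.477 ± 0.0567 in KO, with overlap. Over single markers the ratio went both ways. It was lower in KO over Csf1r, the receptor on which macrophages depend (4.08 ± 0.332 against 3.46 ± 0.239, without overlap), and higher over Lyz2, lysozyme (1.15 ± 0.117 against 2.09 ± 0.588, without overlap). Over Cd68 (11.8 ± 1.17 against 11.2 ± 1.98) and Adgre1 (15.6 ± 2.06 against 14 ± 3.71) the genotypes overlapped. Of 6 markers of Kupffer cells, the resident macrophages of the liver, 4 rose and 0 fell, and their sum was 58.6 to 170 CPM in WT and 248 to 350 CPM in KO. Clec4f, which marks Kupffer cells, was at 23.9, 8.8 and 13.9 CPM in WT and at 129, 137 and 65.9 CPM in KO, so C1q per Clec4f was 32.7 ± 13.7 in WT and 2.32 ± 1.1 in KO. These ratios are given as a description, with no test, and the part of macrophage numbers in the C1q values was not tested.

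The 200 bases before the C1qb start in the RefSeq promoter table (GRCm38.p6, chr4:136886201-136886400, minus strand) are shown because C1qb fell and its promoter holds a match for PU.1, a transcription factor of myeloid cells. Capitals mark the motif AGGAAGT, here on the opposite strand, 53 to 47 bases before the start.
C1qb: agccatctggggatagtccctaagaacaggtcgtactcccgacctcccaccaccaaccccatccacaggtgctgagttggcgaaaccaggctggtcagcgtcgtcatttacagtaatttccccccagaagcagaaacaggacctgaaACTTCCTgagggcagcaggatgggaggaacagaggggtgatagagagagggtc
Promoters from 250 bases before to 50 bases after the start were found for 33 of the 43 genes, and AGGAAGT on either strand was present in those of C1qb, C1qc and C5ar1, which were 3 of 5 myeloid-made genes with a promoter. It was present in 1 of 27 hepatocyte-made promoters (Masp2, 3.7%) and in 9.35% of 32851 promoters of all genes.

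The other myeloid-made genes were the receptors for C3a and C5a and properdin. C3ar1, the C3a receptor, was at 26.6, 15.4 and 22.7 CPM in WT and at 5.01, 9.42 and 10.8 CPM in KO, without overlap. It fell by 1.36 on the log2 scale (SE 0.306, adjusted p = 0.0141), and adjusted p was 0.0562 without WT 1 and 0.0523 without WT 3. C5ar1, the C5a receptor, was at 8.61, 8.47 and 7.31 CPM in WT and at 3.06, 4 and 6.81 CPM in KO. The KO values were all below the WT values, but C5ar1 was not called (log2 fold change −0.81, SE 0.289, adjusted p = 0.0673), and of 15 alternatives 6 called it lower, among them DESeq2 (adjusted p = 0.0386), limma-voom (0.0416), upper-quartile scaling (0.0490) and leaving out KO 3 (0.00499). Cfp, properdin, which stabilises the C3 convertase of the alternative pathway, was the one myeloid-made gene with a positive value (19.3 ± 4.71 against 27 ± 5.87 CPM, log2 fold change 0.48, adjusted p = 0.137), and its value was −0.35 with ERCC scaling. Of 10 neutrophil markers 4 had enough reads to test and 1 fell. Ly6g and Mpo had 0 reads in all 3 WT mice, and in KO 1 to KO 3 had 1, 0 and 0 reads and 2, 1 and 0 reads.

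Cfd, the protease that cuts factor B in the alternative pathway, lies on chromosome 10 (79890853 to 79892655, plus strand). Its reads numbered 45, 77 and 76 in WT and 2147, 1229 and 277 in KO, or 1.1, 2.9 and 1.98 CPM against 91.1, 62.2 and 10.9 CPM. The genotypes did not overlap, but KO 1 and KO 2 were far above KO 3, and the SD in KO was 40.6 around a mean of 54.8 CPM. The mean was 27.5-fold that of WT, and the log2 fold change was 4.81 (SE 0.817, adjusted p = 0.00651). Without KO 1 it was 4.23 (adjusted p = 0.0209), and over all alternatives it ran from 3.71 to 5.28. With no filter beyond 1 count Cfd was not called (4.78, adjusted p = 0.058). In WT, Cfd was the lowest of the 43 genes per kilobase of exon (2.16 CPM per kb), and in KO it was at 59.4 CPM per kb. Its ratio to Cfb, the gene of its substrate, per kilobase was 1.64 in KO 1, 1.35 in KO 2 and 0.254 in KO 3, against 0.0389 to 0.0896 in WT. Cfb shares 79.5% of its exon bases with another gene, and reads there may not have been counted. Whether Cfd was above Cfb in KO 1 and KO 2 is therefore not known.

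Adipocyte markers followed Cfd in part. Of 8 adipocyte markers 4 had enough reads to test, of which 2 rose (Cidea and Lipe) and 0 fell. The summed level of these 4 was 197 to 222 CPM in WT and 229 to 484 CPM in KO, lowest in KO 1. Cidec was the largest of the 4 in every mouse. Lipe was at 18.6, 22.2 and 25.2 CPM in WT and at 51.8, 51.3 and 37.0 CPM in KO (log2 fold change 1.09, adjusted p = 0.00369). Adipoq, which encodes adiponectin, was at 2.67 CPM in KO 1 (63 reads) and at 0 in KO 2 and KO 3, with 0, 0 and 4 reads in WT. Plin1, a lipid droplet protein of adipocytes, was at 4.24, 0.0506 and 0.118 CPM in KO (100, 1 and 3 reads), with 2, 1 and 5 reads in WT. Lep was found in KO 1 only, at 0.297 CPM (7 reads), and Retn at 0.891 CPM in KO 1 (21 reads) and 0.101 CPM in KO 2 (2 reads). Values of fewer than 3 reads are under the floor used here. Cidea, a lipid droplet gene of adipocytes that fatty liver can also express, rose in all KO mice (2.42, 2.71 and 2.09 against 26.6, 67.8 and 43.6 CPM, log2 fold change 4.26, adjusted p = 0.000763). Cidec, another lipid droplet gene, was at 108, 135 and 127 CPM in WT and at 103, 214 and 357 CPM in KO (0.87, adjusted p = 0.133), and Fabp4, a fatty acid-binding protein of adipocytes and macrophages, at 58.5 ± 11.6 and 40.8 ± 10.4 CPM (−0.52, adjusted p = 0.112). KO 1 thus had the highest values of Cfd, Adipoq, Plin1, Lep, Retn and, narrowly, Lipe but the lowest of Cidea and Cidec among KO mice. KO 2 had 62.2 CPM of Cfd with Adipoq and Lep at 0. The part of adipocytes in the Cfd values was not tested.

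**Figure D3:**
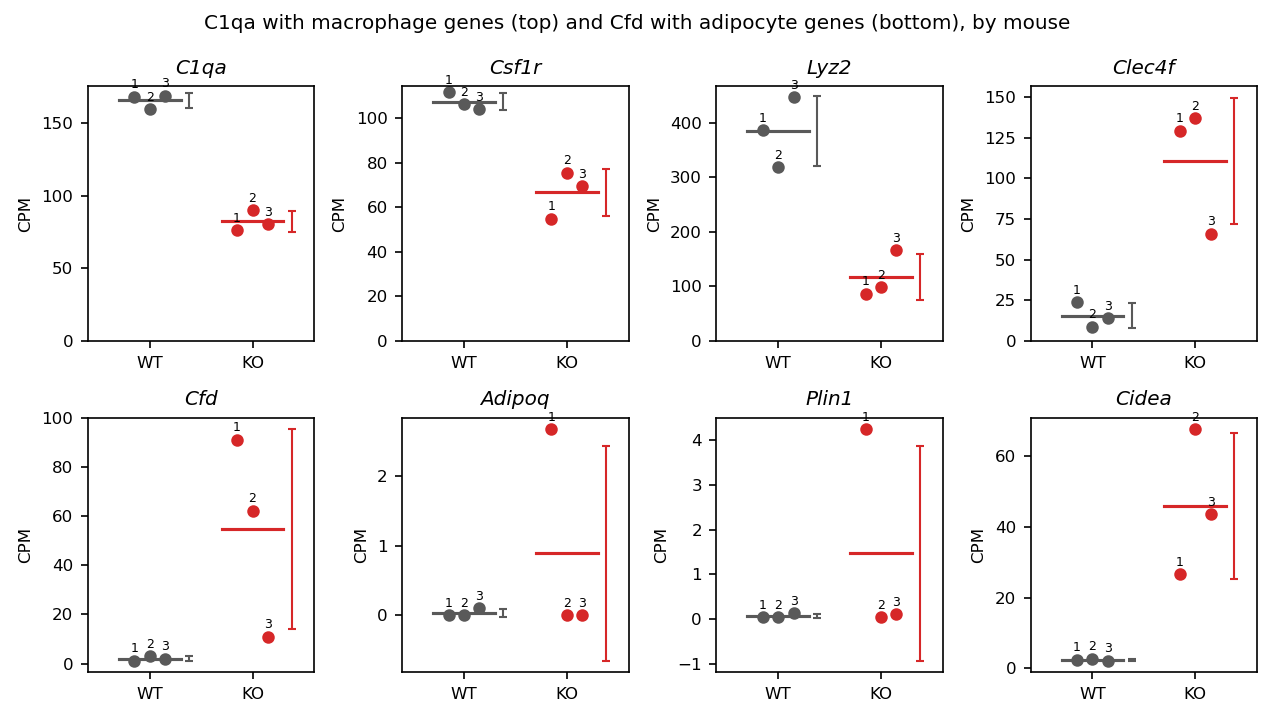
CPM of C1qa beside 3 macrophage genes (top) and of Cfd beside 3 adipocyte genes (bottom) is drawn for each mouse, with the line at the mean, the bar at the SD and numbers for the mice. C1qa falls with Csf1r and Lyz2 while Clec4f is higher, and Cfd is high in KO 1 and KO 2 although Adipoq and Plin1 are high in KO 1 alone.

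All 4 genes of the lectin pathway in the set rose with TMM scaling, where 12.5% of all genes tested were called higher. Masp1 was at −0.24 with ERCC scaling. Outside the set, the collectin gene Colec11 was not called (60.8 ± 3.85 against 57.4 ± 11.9 CPM, log2 fold change −0.083, adjusted p = 0.735), while Colec10 and Fcna, given below, rose. Mbl2, which encodes mannose-binding lectin C, was at 143, 124 and 156 CPM in WT and at 340, 351 and 301 CPM in KO (log2 fold change 1.23, SE 0.145, adjusted p = 0.00141). Mbl1, which encodes mannose-binding lectin A, was at 82.1, 76.9 and 88.2 CPM against 246, 147 and 119 CPM (1.05, SE 0.251, adjusted p = 0.0176). Both lectins were above the WT range in all KO mice, evenly for Mbl2 and with KO 1 far above KO 3 for Mbl1. Masp2, the protease that cuts C4 and C2, was at 82.4, 78.8 and 90 CPM in WT and at 204, 207 and 153 CPM in KO (1.17, SE 0.152, adjusted p = 0.00184). Masp1, which activates Masp2, changed least of the 4 (32 ± 4.47 against 44.1 ± 4.14 CPM, 0.46, adjusted p = 0.0394). Mbl2 and Masp2 were called with any 1 mouse left out. Mbl1 was not called without WT 1, WT 2 or WT 3 (adjusted p 0.0564 to 0.0679), and its log2 fold change without KO 1 was 0.69 (adjusted p = 0.00822). Masp1 was not called when any mouse other than KO 1 was left out (adjusted p 0.0758 to 0.138). Masp2 shares 54.9% of its exon bases with Tardbp on the opposite strand, and whether reads were counted by strand is not given in the sources used here. Tardbp itself was at 84 ± 6.36 and 97.6 ± 6.62 CPM (0.22, adjusted p = 0.203).

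Of the classical pathway proteases and C4 gene in the set (C1ra, C2 and C4b) and C3, none was called. Outside the set, C1s1 and C1rl rose with TMM scaling (log2 fold changes 0.62 and 1.20, adjusted p = 0.0159 and 0.00303). C1rb was not called (0.38, adjusted p = 0.475). C1ra, a protease of the C1 complex, was at 168, 175 and 169 CPM in WT and 303, 221 and 178 CPM in KO (log2 fold change 0.45, SE 0.193, adjusted p = 0.113), and C4b, the C4 gene, at 1136, 944 and 1177 against 1905, 1636 and 1129 CPM (0.52, SE 0.223, adjusted p = 0.116). In both, KO 1 was highest and KO 3 close to WT, and without KO 3 both were called (0.59, adjusted p = 0.0192, and 0.68, adjusted p = 0.0169). C2, the protease that C4b binds, was at 64.2 ± 4.59 and 59.8 ± 12.5 CPM (−0.10, adjusted p = 0.661). C3, the most abundant transcript of the set per kilobase in WT (1102 CPM per kb), was at 4978, 5678 and 6353 CPM in WT and 5797, 4876 and 5016 CPM in KO. The genotypes overlapped (−0.12, SE 0.191, adjusted p = 0.682), so that C3 was among the 3 hepatocyte-made genes with a negative value. Reads of C1ra and C4b can be shared with their near-identical copies C1rb and C4a and are uncertain to that extent.

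Cfb, factor B, which joins C3b to form the alternative convertase, was at 86.8, 99.1 and 103 CPM in WT and at 170, 141 and 131 CPM in KO. It rose with TMM scaling (log2 fold change 0.62, SE 0.141, adjusted p = 0.0144) and was at −0.14 with ERCC scaling, and adjusted p was 0.0636 without WT 1 and 0.0533 without WT 2. The ratio of C3 to Cfb per kilobase was therefore 32.3 ± 1.38 in WT and 19.5 ± 1.26 in KO, without overlap. Cfb lies 85 bases from C2 on chromosome 17, and 79.5% of its exon bases and 42.8% of those of C2 are shared with the read-through gene Gm20547 on the same strand, which had 0 reads in all mice. Reads on shared bases may not have been counted. In that case Cfb per kilobase is too low and its ratio to C3 is misjudged in both genotypes.

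The terminal pathway builds the membrane attack complex, and all 6 of its genes in the set were above 0 with TMM scaling. With ERCC scaling C6 and C8g, the 2 genes called, were above 0 and the other 4 below. C8g, the gamma chain of C8, was at 154, 157 and 194 CPM in WT and at 457, 379 and 237 CPM in KO (log2 fold change 1.08, SE 0.24, adjusted p = 0.0127), and adjusted p was 0.0575 without WT 1 and 0.0549 without WT 2. C6 was at 169, 136 and 145 CPM against 393, 157 and 318 CPM (0.95, SE 0.303, adjusted p = 0.0486). KO 2 lay inside the WT range of C6, and C6 was not called when any mouse other than KO 2 was left out (adjusted p 0.0945 to 0.147). C8b was at 134, 116 and 134 CPM in WT and at 464, 98.3 and 156 CPM in KO (0.9, adjusted p = 0.238), and C8a at 389, 289 and 335 against 1019, 361 and 451 CPM (0.85, adjusted p = 0.118). C9, the pore-forming unit, had the values 349, 295 and 344 against 774, 342 and 317 CPM (0.54, adjusted p = 0.26). Their fold changes rested on KO 1, and without KO 1 were −0.0046 for C8b, 0.27 for C8a and 0.0041 for C9. In KO 2 the alpha and beta chains were low against the gamma chain, with C8a at 0.392 and C8b at 0.152 of C8g per kilobase, where WT mice had 0.709 to 1.03 and 0.403 to 0.508. Hc, the mouse C5 gene, was at 428 ± 60.3 and 583 ± 128 CPM without overlap (0.45, adjusted p = 0.129).

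Of the inhibitors of complement, C4bp, which binds C4b, rose with TMM scaling (486, 386 and 432 against 687, 632 and 545 CPM, log2 fold change 0.52, SE 0.163, adjusted p = 0.0462) and was at −0.27 with ERCC scaling. It was not called when any mouse other than KO 3 was left out (adjusted p 0.0739 to 0.178). Cfi, the protease that cuts C3b and C4b, had KO values all above WT (405, 390 and 462 against 757, 643 and 480 CPM) and was not called (0.58, adjusted p = 0.0549), while without KO 3 its adjusted p was 0.00872. Vtn, vitronectin, which keeps the terminal complex from inserting into membranes, was at 1990 ± 127 and 2749 ± 913 CPM (0.47, adjusted p = 0.196), with KO 3 inside the WT range and an adjusted p of 0.0444 without KO 3.

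Proteins of the vitamin K-dependent family need gamma-carboxylation to bind membranes. Its 4 clotting proteases in the set (F2, F7, F9 and F10) rose with TMM scaling, and all but F9 were below 0 with ERCC scaling. Proc and Pros1, given below as anticoagulants, belong to the same family, and Pros1 was not called. F9, factor IX, was at 129, 130 and 120 CPM in WT and at 225, 217 and 206 CPM in KO (log2 fold change 0.77, SE 0.118, adjusted p = 0.00309). F2, prothrombin, was at 1329, 1323 and 1489 CPM against 2392, 2419 and 1845 CPM (0.68, SE 0.18, adjusted p = 0.0243). The KO values of F9 lay close together and those of F2 were lowest in KO 3, with no overlap in either gene. F7, factor VII, which starts clotting together with tissue factor, was at 60.8, 55.5 and 59.1 CPM in WT and at 146, 109 and 66.2 CPM in KO (0.87, SE 0.253, adjusted p = 0.034). F10, factor X, which makes thrombin from prothrombin, was at 265, 282 and 325 CPM against 703, 536 and 339 CPM (0.85, SE 0.254, adjusted p = 0.037). These neighbours, 1498 bases apart on chromosome 8, both had their highest value in KO 1 and a KO 3 just above WT, and without KO 1 both were at 0.59 (adjusted p = 0.0505 for F7 and 0.0638 for F10). Without WT 1, WT 2, WT 3 or KO 2 in turn, adjusted p was 0.072 to 0.105 for F2, 0.086 to 0.11 for F7 and 0.0855 to 0.126 for F10, whereas F9 stayed called with any 1 mouse left out.

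F5, factor V, the cofactor of factor X, varied least of the 36 hepatocyte-made genes among KO mice, with a coefficient of variation of 2.15%. It was at 244, 221 and 235 CPM in WT and at 384, 372 and 388 CPM in KO (log2 fold change 0.71, SE 0.126, adjusted p = 0.00564), and was called with any 1 mouse left out. F13b, the carrier subunit of the factor that crosslinks fibrin, was alike, at 84.5, 84.5 and 96.4 CPM against 159, 164 and 140 CPM (0.8, SE 0.124, adjusted p = 0.00325). With ERCC scaling, which lowers all genes, F5 was at −0.0030 and F13b at 0.049.

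In the contact system, which starts clotting on charged surfaces and releases bradykinin, 2 of 4 genes rose with TMM scaling, and F12 was at −0.031 with ERCC scaling. F12, factor XII, was at 391, 451 and 450 CPM in WT and at 684, 807 and 632 CPM in KO (log2 fold change 0.72, SE 0.16, adjusted p = 0.013). Klkb1, plasma prekallikrein, was at 67.3, 62.9 and 72.5 CPM against 190, 114 and 89.6 CPM (0.96, SE 0.255, adjusted p = 0.0259), and without KO 1 at 0.59 (adjusted p = 0.0166). Both were above WT in all KO mice, and neither was called without WT 1, WT 2 or WT 3 (adjusted p 0.0517 to 0.062 for F12 and 0.073 to 0.0913 for Klkb1). Kng1, kininogen, the source of bradykinin, was at 1342, 1190 and 1367 CPM in WT and at 2625, 2078 and 1478 CPM in KO, without overlap (0.66, adjusted p = 0.0601, and 0.83 with an adjusted p of 0.00773 without KO 3). F11, factor XI, was at 35.3, 27.2 and 29.6 CPM against 77, 37.6 and 29.6 CPM (0.65, adjusted p = 0.182). Its value without KO 1 was 0.13. Of the exon bases of Klkb1 43.2% are shared with Gm45753 on the same strand, which had 0 to 4 reads per mouse, and Kng1 shares sequence with its copy Kng2.

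The 3 fibrinogen chains gave large values that rested on 1 mouse. Fga, the alpha chain, was at 3172, 1842 and 3151 CPM in WT and at 7894, 3476 and 2507 CPM in KO. Fgb, the beta chain, was at 2694, 1576 and 2845 CPM against 8203, 3077 and 2082 CPM, and Fgg, the gamma chain, at 2399, 1433 and 2423 CPM against 7792, 3021 and 2048 CPM. In each chain KO 1 was far above all other mice, KO 3 was inside the WT range and WT 2 was lowest. The log2 fold changes were 0.77 for Fga (SE 0.429, adjusted p = 0.218), 0.91 for Fgb (SE 0.495, adjusted p = 0.206) and 1.04 for Fgg (SE 0.479, adjusted p = 0.141), and without KO 1 they were 0.14, 0.12 and 0.28. With ERCC scaling they were −0.23, −0.13 and 0.0078. The chains kept close to one another within a mouse. Per kilobase, Fgb over Fga was 0.687 ± 0.0231 in WT and 0.726 ± 0.0855 in KO, with overlap, and Fgg over Fga was 1.10 ± 0.0158 against 1.28 ± 0.125, without overlap. The genes lie in a row on chromosome 3 between 83007724 and 83049863, in the order Fgg, Fga, Fgb, with gaps of 11026 and 6513 bases.

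Fibrinogen genes are known for transcription by hepatocyte factors such as HNF1 and C/EBP and for induction by interleukin-6. As examples, 200 bases before the start of 2 of them are shown (RefSeq promoters, GRCm38.p6). The promoter of Fga, not shown, also holds the HNF1 half-site and the C/EBP motif. Capitals mark the matches. In Fgb (chr3:83049864-83050063, minus strand) they are, in order, the interleukin-6 response motif CTGGGAA 91 to 85 bases before the start, the C/EBP motif TTGCNNAA 80 to 73 bases before it, and the HNF1 half-site GTTAAT, on the opposite strand, 29 to 24 bases before it. In Fgg (chr3:83007524-83007723, plus strand) CTGGGAA lies 13 to 7 bases before the start.
Fgb: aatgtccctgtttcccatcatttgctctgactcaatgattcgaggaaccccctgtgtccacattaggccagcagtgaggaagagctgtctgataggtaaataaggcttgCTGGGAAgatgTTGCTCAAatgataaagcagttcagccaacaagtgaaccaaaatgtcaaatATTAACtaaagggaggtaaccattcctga
Fgg: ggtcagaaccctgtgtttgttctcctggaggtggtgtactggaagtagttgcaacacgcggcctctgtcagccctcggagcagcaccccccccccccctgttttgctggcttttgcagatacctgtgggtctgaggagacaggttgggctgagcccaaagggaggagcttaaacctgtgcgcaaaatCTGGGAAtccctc
Over the 27 hepatocyte-made genes with a promoter and on either strand, GTTAAT was found in 10 (37%), against 7.1% of all 32851 promoters. TTGCNNAA was found in 8 (29.6%, against 10.8%), CTGGGAA in 7 (25.9%, against 11.1%) and the TATA box TATAAA in 4 (14.8%, against 13.6%). The 10 genes with GTTAAT were C1ra, C4bp, C8a, C8b, F13b, F2, Fga, Fgb, Hc and Vtn, of which C4bp, F13b and F2 rose. These are matches of letters, not sites.

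Of the 3 anticoagulant genes, Proc and Apoh rose with TMM scaling (Proc was at −0.14 with ERCC scaling) and Pros1 was not called. Proc, protein C, which inactivates factor V once activated, was at 363, 381 and 410 CPM in WT and at 730, 646 and 474 CPM in KO (log2 fold change 0.68, SE 0.187, adjusted p = 0.0277). Pros1, protein S, its cofactor, was at 98.4, 108 and 95.4 CPM against 86.8, 95.2 and 95 CPM. All 3 KO values of Pros1 were just below the WT values, and the difference was not called (−0.12, SE 0.113, adjusted p = 0.446). The ratio of Pros1 to Proc per kilobase was 0.159 ± 0.0161 in WT and 0.0943 ± 0.0251 in KO, without overlap. Apoh, beta-2 glycoprotein I, a phospholipid-binding plasma protein, was at 1121, 1083 and 1247 CPM in WT and at 2443, 2306 and 1622 CPM in KO (0.88, SE 0.202, adjusted p = 0.0144). Without WT 1, WT 2 or WT 3 in turn adjusted p was 0.0819 to 0.101 for Proc and 0.0528 to 0.0696 for Apoh, and Proc had 0.0767 without KO 2.

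Plg, plasminogen, the precursor of the enzyme that dissolves fibrin, was at 1135, 1097 and 1239 CPM in WT and at 2691, 1815 and 1310 CPM in KO. All KO values were above WT, but Plg was not called (log2 fold change 0.74, SE 0.261, adjusted p = 0.0634) and was called without KO 3 (0.94, adjusted p = 0.00848). It shares 11.3% of its exon bases with Slc22a3 on the opposite strand, which was at 9.76 CPM in both genotypes. Fn1, fibronectin, an adhesive protein of plasma and matrix, rose with TMM scaling from 658, 602 and 751 CPM to 1211, 939 and 872 CPM (0.59, SE 0.185, adjusted p = 0.045) and was at −0.20 with ERCC scaling. It was not called when any mouse other than KO 3 was left out (adjusted p 0.0762 to 0.168).

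**Figure D4:**
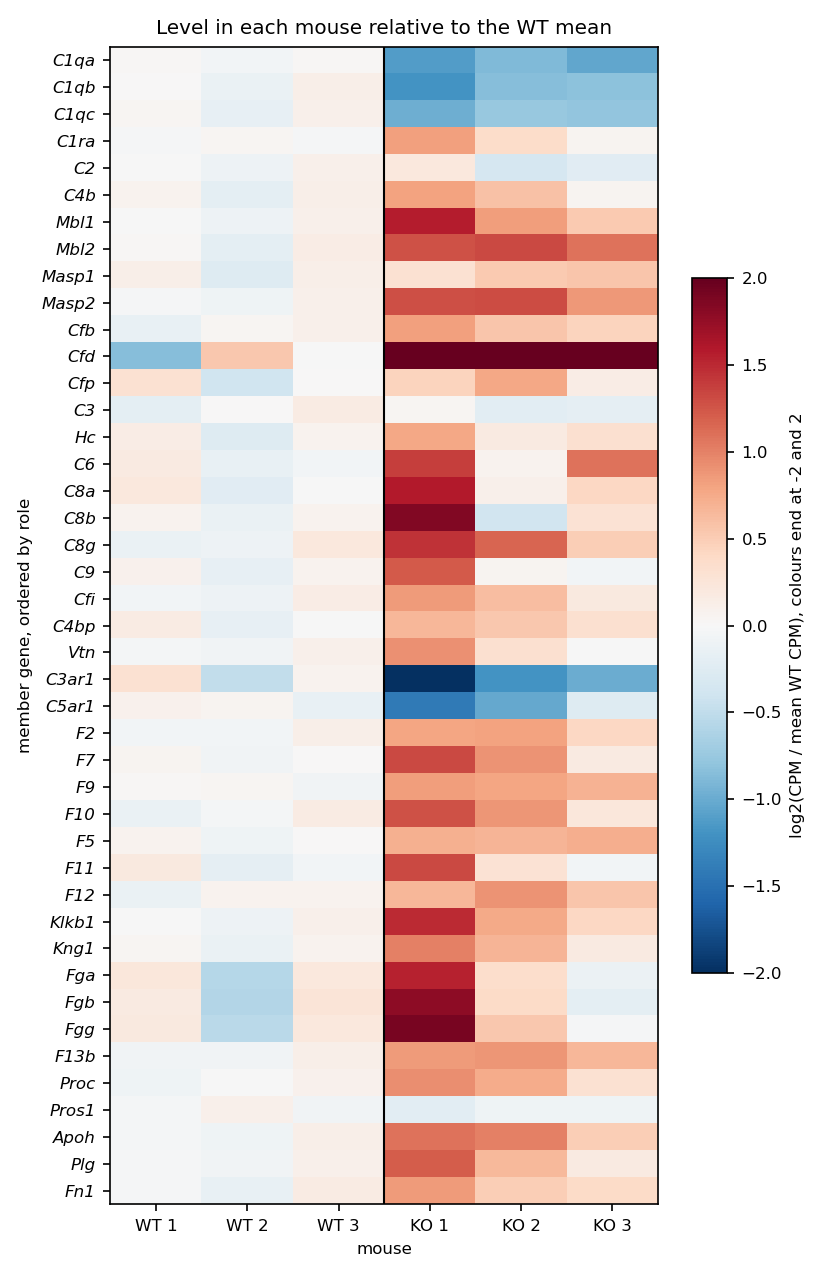
The colour gives log2 of CPM over the WT mean for each gene (rows, by role) and mouse (columns), ending at −2 and 2. With TMM scaling the hepatocyte-made rows are darkest red in KO 1, with a median of 0.97, and paler in KO 2 (0.57) and KO 3 (0.31), and the C1q rows are blue in all KO mice.

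KO mice differed from one another in the hepatocyte-made genes more than WT mice did. KO 1 was the highest of all 6 mice in 27 of the 36 genes, KO 2 in 5 and KO 3 in 2, and in C3 and Pros1 a WT mouse was highest. KO 3 was the lowest KO mouse in 27. The coefficient of variation was larger in KO than in WT for 31 of the 36 genes, with medians of 23.8% and 8.39%. Against the WT mean, the median gene stood at 0.97 on the log2 scale in KO 1, 0.57 in KO 2 and 0.31 in KO 3, and at −0.0044, −0.10 and 0.10 in the WT mice. For 10 hepatocyte markers these values were 0.62, 0.54 and 0.17 in KO, their summed level was 66409 to 81895 CPM in WT and 77690 to 115417 CPM in KO, and 2 rose and 0 fell, with a median log2 fold change of 0.57. Alb, albumin, was at 34830, 34486 and 43319 CPM in WT and at 57321, 65656 and 42706 CPM in KO (log2 fold change 0.56, adjusted p = 0.132). The part of hepatocyte content in the values of the 36 genes was not tested. Markers of other cells also moved. Of 6 biliary markers 6 fell (summed 974 to 1216 CPM in WT and 129 to 247 CPM in KO), and of 8 stellate cell and fibroblast markers 4 fell and 1 rose (1217 to 1301 against 328 to 818 CPM). Of 8 endothelial markers 2 rose and 0 fell (330 to 344 against 335 to 410 CPM).

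How many of the 36 hepatocyte-made genes were called higher depended on the mice in the fit. It was 5 without WT 1, 5 without WT 2, 7 without WT 3, 14 without KO 1, 12 without KO 2 and 23 without KO 3, against 19 with all mice. The counts over all genes went the same way, from 2012 with all mice to between 805 and 936 without a WT mouse. Genes lying apart between genotypes numbered 24 of the 36, with 23 higher and 1 lower (Pros1), where 46.9% of all genes tested did not overlap, 21.9% higher and 25% lower. Of the 24 called genes in the set, Cfd, C1qa, C1qb, C1qc, Mbl2, Masp2, F9, F5 and F13b were called whichever mouse was left out. The median of the hepatocyte-made genes was 0.45 without KO 1.

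Other genes of the same pathways moved in both directions, as did all genes tested, of which 12.5% were called higher and 16.5% lower. Of 30 further complement genes 28 were tested, 13 rose and 6 fell, with a median log2 fold change of 0.38. Colec10, a collectin that recognises sugars for the lectin pathway, rose most, from 0.636, 0.865 and 0.913 CPM to 11.9, 21.2 and 21.9 CPM (4.51, SE 0.305, adjusted p = 0.000639). Fcna, ficolin A, rose from 7.66 ± 3.15 to 33.4 ± 15.3 CPM (2.12, adjusted p = 0.011), Cd59b, an inhibitor of the membrane attack complex, from 1.53 ± 0.2 to 4.77 ± 0.568 CPM (1.63, adjusted p = 0.0026), and C4a, the copy of C4b, from 30.5 ± 10.7 to 113 ± 76 CPM (1.89, adjusted p = 0.0305). C7, the terminal pathway gene next in order after C6, fell from 13.1 ± 0.919 to 3.38 ± 0.856 CPM (−1.94, SE 0.208, adjusted p = 0.00111), against the positive values, with TMM scaling, of the 6 terminal pathway genes above.

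Of 38 further genes of clotting, its inhibitors, receptors and fibrinolysis, 35 were tested, with a median of 0.45. Of these, 11 rose and 8 fell, where 12.5% of all genes tested were called higher and 16.5% lower. Plat, tissue plasminogen activator, fell from 18.1, 13.1 and 11.7 CPM to 2.76, 2.13 and 3.31 CPM (log2 fold change −2.38, SE 0.243, adjusted p = 0.00101), while its substrate gene Plg was higher in all KO mice with TMM scaling and at −0.13 with ERCC scaling. F2rl1, a protease-activated receptor, fell from 7.49 ± 1.01 to 1.43 ± 0.976 CPM (−2.36, adjusted p = 0.0053). Fgl2, a fibrinogen-like prothrombinase of macrophages and endothelium, fell from 16.7 ± 3.14 to 4.66 ± 1.98 CPM (−1.84, adjusted p = 0.00392). Of 6 platelet and megakaryocyte markers 3 were tested and 1 fell, with sums of 7.11 to 8.06 CPM in WT and 6.11 to 8.5 CPM in KO. Of 5 red cell markers 1 rose, with sums of 101 to 188 CPM and 220 to 245 CPM.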

How the data were processed

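Total RNA from 6 livers was sequenced after library preparation with a NEBNext Ultra kit. Per the labels, the authors trimmed reads with Trimmomatic 0.36, aligned them with STAR 2.5.2b to GRCm38 (mm10), and counted reads on genes with featureCounts of Subread 1.5.2. The authors deposited raw counts per gene, including those of ERCC spike-in RNAs, with no normalization. Whether counting used strand is not given in the sources used here, and gene counts include reads of overlapping genes where the counter assigned them.

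ERCC RNAs were set aside, low genes were removed by filterByExpr (edgeR 4.0.16, R 4.3.3), and libraries were TMM-scaled. KO was compared with WT in edgeR's two-sided quasi-likelihood F test with robust dispersions, with Benjamini-Hochberg adjustment over 16089 genes. A floor of 3 counts equals 0.0734 to 0.152 CPM, for counting error only. Replicate pairs differed by far more than sampling noise (chi-square per gene 23.6 to 140). Alternatives were other scalings (library size, upper quartile, ERCC), DESeq2 1.42.0, limma-voom (limma 3.58.1), no filter beyond 1 count, 10 or more counts in each sample, non-robust dispersions, a replicate block, and each mouse left out. On simulated counts for 16089 genes with 200 changed 4-fold, 83% were recovered and 10.8% of calls were unchanged genes. The largest log2 fold change of a hepatocyte-made gene was 1.23, and recovery of changes of that size or smaller was not simulated. Every one of the 43 genes is named, with, of the further pathway genes, the 4 largest called increases and 4 largest called decreases, and up to 3 defining markers of a cell type. Further markers (Plin1, Lep, Retn and others) and the pathway genes C1s1, C1rl, C1rb and Colec11 were named after their values were seen. The 43 genes, the source groups and the lists were chosen with earlier results of these data known. Of 49671 gene identifiers 345 had no symbol. Promoters were RefSeq's.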

Additional observations from a re-analysis of the deposited data

How the results depend on the processing

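With ERCC scaling, the log2 fold changes whose sign turned were C1ra −0.37, C4b −0.34, Masp1 −0.24, Cfb −0.14, Cfp −0.35, Hc −0.33, C8a −0.027, C8b −0.026, C9 −0.37, Cfi −0.25, C4bp −0.27, Vtn −0.39, F2 −0.10, F7 −0.031, F10 −0.033, F5 −0.0030, F11 −0.28, F12 −0.031, Kng1 −0.19, Fga −0.23, Fgb −0.13, Proc −0.14, Plg −0.13 and Fn1 −0.20, each at an adjusted p above the threshold. With each mouse left out, C2 ran up to 0.0045 (without KO 2) and C8b from −0.0046 (without KO 1) to 1.28 (without KO 2). Without TMM scaling, 3 hepatocyte-made genes (0 in the reported fit) were called lower and 5 (19) higher, and over all genes 539 (2012) were called higher and 4923 (2651) lower. With ERCC scaling these were 0 hepatocyte-made genes higher and 107 of all genes higher. Leaving out each mouse gave 5 to 23 hepatocyte-made genes higher and 0 lower, 3 to 5 myeloid-made genes lower, 805 to 2521 of all genes higher and 1621 to 3076 lower, and a Cfd log2 fold change of 4.23 to 5.28. Without a filter beyond 1 count, Cfd was at 4.78 and no longer called (adjusted p = 0.058, with 1.73e-07 to 0.058 over all its alternatives). The cause of these changes was not tested.

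The labels do not say whether the replicate numbers pair the mice. Correlations of the deviations of same-numbered mice were −0.0459, 0.0125 and −0.0766, and those of differently numbered mice were −0.0239 to 0.0808. With 3 mice per genotype such values cannot settle whether mice were paired. With the number as a block, 13 hepatocyte-made genes rose and 4 myeloid-made genes fell, and of the 24 called genes 6 were no longer called. DESeq2 called 24 hepatocyte-made genes higher and limma-voom 18. The lowest read number of any of the 43 genes was 45, for Cfd in WT 1.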
